A study of Mus musculus with 9 samples.

Results

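The genes described here encode the matrix metalloproteases (Mmp), the secreted proteases with thrombospondin repeats (Adamts), the ADAMTS-like proteins (Adamtsl) and the tissue inhibitors of metalloproteases (Timp). They were taken by symbol from a table of gene counts for sorted cardiac endothelial cells of the embryonic mouse: every row whose Ensembl identifier maps to a symbol starting with Mmp, Adamts or Adamtsl and a digit, or equal to Timp1 to Timp4. The rule found 51 of 41214 features, namely 23 Mmp, 19 Adamts, 5 Adamtsl and 4 Timp genes. All libraries came from ventricles of embryos harvested at E17.5, with atria and the region of the aorta removed. The embryos carried the transgenes Nes-Gfp(Tg/0) and Nes-CreER(Tg/0) together with the reporter allele R26(tom/+), and 0.1 ug tamoxifen had been given at E15.5. Nes-Gfp reports activity of a Nestin transgene, and Tomato marks cells in which Nes-CreER had recombined the R26 reporter. Every sort took viable cells negative for the erythroid marker Ter119 and the leukocyte marker CD45 and positive for the endothelial marker CD31 and for GFP. The endocardial gate carries no further condition in the labels; as written it would also admit coronary cells, and their share in the endocardial libraries was not tested. The arterial gate, which per the labels holds cells of intramyocardial arteries and of capillaries, asked for low Emcn and for Tomato. The venous gate, for veins under the epicardium, asked for low Emcn, no Tomato and low GFP. Each population had 3 libraries, numbered 1 to 3, and the number is also given as the batch; the labels do not say whether libraries came from separate litters. The p-values therefore measure only how far these libraries differ among themselves, and that spread may be technical.

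Matrix metalloproteases are zinc enzymes that are made as inactive precursors and, once activated, cut collagens, elastin, laminins and cell-surface proteins. ADAMTS enzymes carry a related catalytic centre and include proteases of versican and aggrecan and the proteases that trim fibrillar procollagens, while ADAMTS-like proteins have the accessory domains but no catalytic domain. TIMPs bind the active site and block it, and in the developing heart the turnover of the matrix between endocardium and myocardium is a known task of ADAMTS enzymes.

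A sequence typical of the enzymes in these families is a window of 11 codons in the coding exons, with histidine codons at positions 1, 5 and 11, which hold the catalytic zinc, a glutamate codon at position 2 and a glycine or asparagine codon at position 8. An in-frame search of GENCODE M21 coding sequences on GRCm38 found it in 74 of 21584 genes (0.343%), in all 23 Mmp genes, in 18 of 19 Adamts genes (Adamts8 has no match to these letters), in 0 of 5 Adamtsl genes and in 0 of 4 Timp genes. Windows of 8 enzymes on which the results turn are shown 5′ to 3′ on the coding strand, with the 3 histidine codons and codon 8 in capitals. The Mmp windows shown lie within a single coding exon and the Adamts windows shown are spliced across an exon junction.
Mmp2 (chr8:92839279-92839311, plus strand): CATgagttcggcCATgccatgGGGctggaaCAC
Mmp14 (chr14:54437627-54437659, plus strand): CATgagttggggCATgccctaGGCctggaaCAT
Mmp28 (chr11:83444921-83444953, minus strand): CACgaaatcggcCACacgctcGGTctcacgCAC
Mmp15 (chr8:95368585-95368617, plus strand): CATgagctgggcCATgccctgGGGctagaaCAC
Adamts5 (chr16:85878015-85887826, minus strand): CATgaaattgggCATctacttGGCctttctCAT
Adamts1 (chr16:85799191-85799545, minus strand): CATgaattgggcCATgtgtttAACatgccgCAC
Adamts9 (chr6:92905285-92908493, minus strand): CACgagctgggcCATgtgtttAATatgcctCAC
Adamts4 (chr1:171253210-171253915, plus strand): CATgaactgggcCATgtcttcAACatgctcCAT
Codon 8 encoded glycine in all 23 Mmp genes and in 13 Adamts genes, and asparagine in 5 Adamts genes (Adamts1, Adamts4, Adamts9, Adamts15 and Adamts20).

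Of the 51 genes, 49 had at least 1 count in some library, 47 had at least 10 counts in some library, 32 reached 1 CPM (counts scaled by TMM to library size) in all 3 libraries of a population, and 29 had a count in all 9 libraries. Mmp10 and Mmp1b had no count anywhere, which at this depth does not show that they are absent. A filter on low counts passed 39 genes, 12 Mmp, 18 Adamts, 5 Adamtsl and 4 Timp, and these were among the 17103 genes tested. The 12 others, Mmp1a, Mmp1b, Mmp3, Mmp7, Mmp8, Mmp9, Mmp10, Mmp13, Mmp20, Mmp21, Mmp27 and Adamts13, reached at most 70 counts in any library. That value belongs to Adamts13, the protease of von Willebrand factor, in endocardial library 1; endocardial libraries 2 and 3 had 0. Mmp9, the other gelatinase besides Mmp2, had 6, 0 and 0 counts in endocardial libraries, 15, 3 and 33 in arterial and 6, 3 and 0 in venous libraries. Mmp21, just under the filter, had 5, 2 and 1 counts in endocardial, 13, 8 and 0 in arterial and 19, 8 and 9 in venous libraries.

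The genes that were not tested and the tested genes differed in the letters of their promoters. Sequences are shown for Mmp3, which was not tested, and for a higher and a lower gene. RefSeq promoters (GRCm38.p6, 250 bases before to 50 after the start) were found for 36 of the 51 genes. Both strands were searched for TGANTCA (the AP-1 motif), GGGCGG (the GC box), TATAAA (the TATA box) and the ETS motifs CCGGAA and AGGAAG, with all matches in capitals; no matches overlap in the 3 sequences shown.
Mmp3 (chr9:7445572-7445871, plus strand, not tested): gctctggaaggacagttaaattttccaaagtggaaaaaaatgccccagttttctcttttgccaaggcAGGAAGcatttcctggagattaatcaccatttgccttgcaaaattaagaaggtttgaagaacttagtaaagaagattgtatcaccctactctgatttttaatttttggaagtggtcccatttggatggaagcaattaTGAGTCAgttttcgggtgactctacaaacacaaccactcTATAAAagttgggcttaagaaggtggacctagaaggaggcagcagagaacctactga
Mmp28 (chr11:83462991-83463290, minus strand, higher in endocardial cells): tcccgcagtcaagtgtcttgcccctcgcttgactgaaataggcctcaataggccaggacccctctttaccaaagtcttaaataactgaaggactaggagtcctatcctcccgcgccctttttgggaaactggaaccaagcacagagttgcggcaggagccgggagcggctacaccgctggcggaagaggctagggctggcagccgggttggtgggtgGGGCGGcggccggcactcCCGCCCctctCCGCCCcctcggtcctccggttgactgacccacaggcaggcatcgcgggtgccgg
Timp4 (chr6:115252156-115252455, minus strand, lower in endocardial cells): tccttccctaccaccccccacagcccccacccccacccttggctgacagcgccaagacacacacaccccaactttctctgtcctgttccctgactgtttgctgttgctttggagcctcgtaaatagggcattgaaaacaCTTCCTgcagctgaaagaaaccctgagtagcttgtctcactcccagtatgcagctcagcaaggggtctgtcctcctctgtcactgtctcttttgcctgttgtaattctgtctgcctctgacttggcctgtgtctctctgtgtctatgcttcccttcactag
The TATA box was present in 9 of 11 genes that were not tested and in 3 of 25 tested genes, against 13.6% of 32851 promoters in all. AP-1 letters were present in 7 of the 11 and in 1 of the 25 (Mmp12), against 7.81% of all promoters. The GC box ran the other way, with 1 of the 11 and 21 of the 25, against 35.7% of all. Among tested genes that averaged at least 10 CPM in a population it was in 10 of 14. The ETS letters AGGAAG were in 8 of the 11 and 7 of the 25, against 35.4% of all. The letters CCGGAA were in 0 of the 11 and 1 of the 25, against 14.9%. Of the genes called between endocardial and coronary cells that have a promoter entry, the GC box was in 5 of 5 higher and in 3 of 4 lower ones. A match is a description of the letters and no evidence of a bound factor, and 10 of the Mmp genes (Mmp1a, Mmp1b, Mmp3, Mmp7, Mmp8, Mmp10, Mmp12, Mmp13, Mmp20 and Mmp27) are neighbours in a single cluster on chromosome 9, of which Mmp12 alone was tested. All AP-1 matches of genes not tested lie in this cluster, and so do their TATA matches except that of Mmp21. The genes not tested whose promoter lacks a GC box also lie in this cluster, except Mmp21, and Mmp12 lacks it as well. The AP-1, TATA and GC box contrasts therefore rest largely on this cluster.

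Libraries held 12750553 to 19474419 counts. Endocardial library 1 stood apart from its replicates on the second principal component (139.4, against 1.8 and -16.2 in endocardial libraries 2 and 3) and had more genes with a count (21101, against 17337 and 17130), so counts of called genes are also given without it. Endothelial markers summed to 4724 to 6165 CPM in endocardial, 6383 to 8557 in arterial and 6122 to 7959 in venous libraries. Leukocyte markers summed to at most 13.8 CPM in any library, with Cd3e, Fcgr3 and C1qa among those at 0 in endocardial libraries. Fibroblast markers (12 genes, among them Col1a1, Dcn and Postn) summed to 1622 to 1965 CPM in endocardial and 1425 to 1665 in venous libraries but to 105 to 121 in arterial libraries, where Dpep1 was at 0. Mural markers (11 genes, among them Rgs5 and Acta2) summed to 85.1 to 151 CPM in endocardial, 537 to 847 in arterial and 241 to 348 in venous libraries. Cardiomyocyte markers summed to 379 to 437 CPM in endocardial libraries, with Nppa at 0, to 157 to 232 in arterial and to 296 to 437 in venous libraries. In sorted bulk samples, fewer cells of a type and less RNA per cell cannot be told apart.

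Compared per length, the order of levels was headed by a versican protease and the matrix-bound inhibitor. Adamts1 averaged 195 CPM per kb of exon in endocardial, 177 in arterial and 113 in venous libraries, and Timp3 averaged 96.4, 110 and 104 in the same order of populations. After a gap came Adamts9 at 12.4 in endocardial, 37.1 in arterial and 27.6 in venous, Timp2 at 31, 26.8 and 18, and Mmp2 at 45.9, 3.12 and 14.2. Mmp15 (5.73, 18.8 and 16.6), Adamts4 (2.96, 19.6 and 11.6) and Mmp14 (12.5, 6.17 and 6.52) completed the 8 most abundant genes. The order therefore differed by population: Mmp2 was the third gene in endocardial libraries, and Adamts9 was the third in arterial and venous libraries. In summed CPM, which is not per length, the Mmp genes gave 310 ± 71.5 in endocardial, 197 ± 20.1 in arterial and 211 ± 36.2 in venous libraries (SD, n = 3 each). Endocardial library 1, at 228, lay below venous libraries 1 and 2, at 232 each. Adamts genes summed to 1471 ± 143 CPM in endocardial, 1756 ± 119 in arterial and 1242 ± 112 in venous libraries, and Timp genes to 913 ± 137, 1019 ± 44.2 and 943 ± 97.9.

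**Figure D1:**
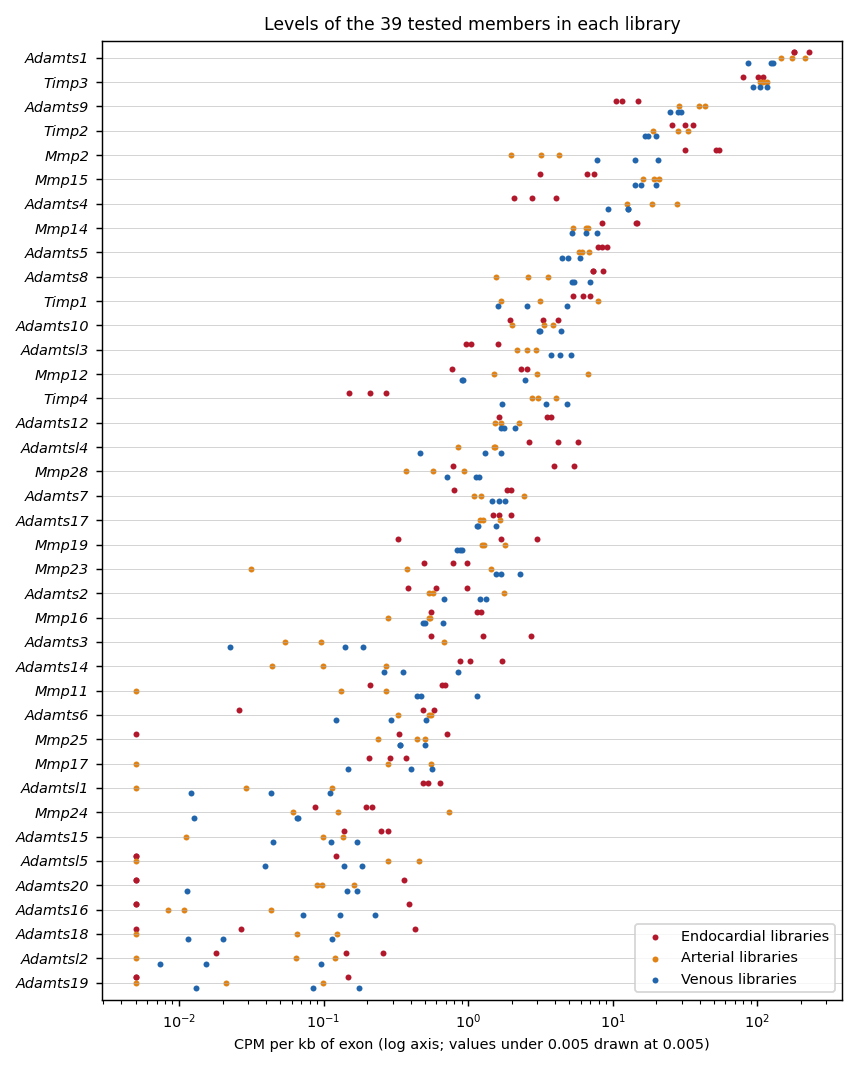
Level of each of the 39 tested genes in every library, in CPM per kb of exon on a log axis, with endocardial libraries in red, arterial in orange and venous in blue; genes run from the highest to the lowest mean. Adamts1 and Timp3 lead in all 3 populations, and Mmp2, Adamts9, Mmp15, Adamts4 and Timp4 show endocardial libraries apart from the others.

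The main contrast set endocardial cells against coronary cells, taken as the mean of arterial and venous libraries on the log scale. It called 14 of the 39 tested genes (35.9%), 9 higher and 5 lower in endocardial cells, by edgeR's quasi-likelihood test with Benjamini-Hochberg adjustment over all genes at 0.05; of all genes tested, 13.9% were called, 6.91% higher and 7% lower. The 9 higher genes were Mmp2, Mmp14, Mmp28, Adamts3, Adamts5, Adamts8, Adamts14, Adamtsl1 and Adamtsl4, and the 5 lower genes were Mmp15, Adamts4, Adamts9, Adamtsl3 and Timp4. The median log2 fold change of the 39 was 0.46, against 0.08 over all genes, and the median size of change regardless of sign was 0.79, against 0.52. Without endocardial library 1 the count was 13, with Adamts3, Adamts5 and Adamts14 lost and Adamts12 and Timp2 gained. The direction was the same within each of the 3 batches for 13 of the 14, Mmp28 being the exception. These differences come from the same libraries as the calls and are no separate test of them.

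**Figure D2:**
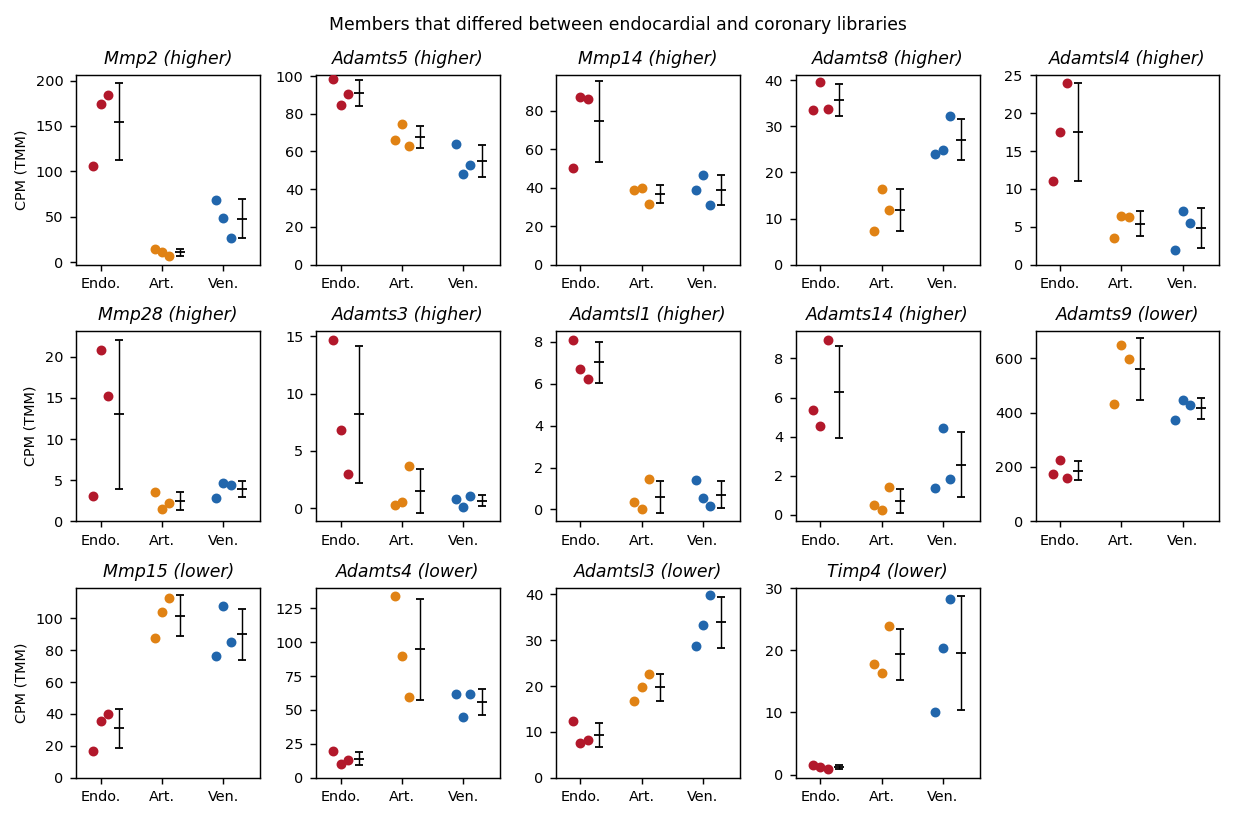
CPM of the 14 genes called between endocardial and coronary libraries, each point a library, with endocardial (Endo., red), arterial (Art., orange) and venous (Ven., blue) libraries; the bar is the mean ± SD of 3 libraries. Timp4, Adamts4, Adamts9, Mmp15 and Adamtsl3 have all endocardial points below all others, while Mmp28 and Adamts3 have endocardial points among the coronary ones.

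The Mmp gene with the largest share of summed Mmp CPM was Mmp2 in endocardial libraries and Mmp15 in arterial and venous libraries. These shares are not per length: per kb of exon, Mmp2 was above Mmp15 in venous library 1. Mmp2 (ENSMUSG00000031740, GRCm38 chr8:92827291-92853420, plus strand), the gelatinase that cuts basement membrane and denatured collagen, had 106, 174 and 184 CPM in endocardial libraries, 14.2, 10.8 and 6.62 in arterial and 68.9, 48.2 and 26.1 in venous libraries. All endocardial values lay above all coronary values, and all venous values above all arterial values. It was 6.9-fold higher in endocardial than in coronary cells (log2 fold change 2.79 ± 0.31 SE, edgeR adjusted p 0.000101), with differences of 1.74, 2.90 and 3.74 within batches 1, 2 and 3. Set against arterial cells alone the endocardial value was 14.7-fold higher (adjusted p 8.9e-05), and against venous cells alone 3.24-fold higher (adjusted p 0.0153), a call lost without venous library 2 (edgeR adjusted p 0.0874) or endocardial library 2 (0.0611) or 3 (0.059). Mmp2 made up 49.4% ± 2.65 of all Mmp CPM in endocardial, 5.48% ± 2.3 in arterial and 22% ± 7.18 in venous libraries (SD, n = 3 each). Arterial libraries were the lowest in Mmp2 and in the sum of fibroblast markers. Endocardial against arterial, 7 of the 12 fibroblast markers were called higher and none lower. Endocardial against venous, 3 were called higher (Pdgfra, Postn and Lum) and 3 lower (Col1a1, Col3a1 and Dpt). The median log2 fold change of the 12 was -0.83. Pdgfra, a receptor that marks fibroblasts, was 3.46-fold higher and Col1a1 5.58-fold lower, both without overlap (edgeR adjusted p 3.34e-05 and 4.65e-05). The part of fibroblast RNA in the Mmp2 values was not tested.

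Mmp15 (ENSMUSG00000031790, chr8:95352268-95375080, plus strand), a membrane-bound protease also called MT2-MMP, went the opposite way on the same chromosome. It had 17.0, 35.7 and 40.2 CPM in endocardial libraries, 87.7, 104 and 113 in arterial and 76.6, 108 and 85.0 in venous libraries. Endocardial libraries were the lowest of the 9, and arterial and venous libraries overlapped. The gene was 3.08-fold lower in endocardial than in coronary cells (log2 fold change -1.63 ± 0.25, edgeR adjusted p 0.000241), with -2.24, -1.55 and -1.28 within batches, and was called against each coronary population alone. It made up 9.66% ± 1.98 of all Mmp CPM in endocardial, 51.5% ± 4.82 in arterial and 43.2% ± 9.08 in venous libraries.

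Mmp14 (ENSMUSG00000000957, chr14:54431612-54445364, plus strand), the membrane-bound activator of the Mmp2 precursor, had 50.3, 87.2 and 86.3 CPM in endocardial libraries, 38.7, 40.1 and 31.5 in arterial and 39.0, 46.4 and 31.2 in venous libraries. Every endocardial library was above every coronary library, endocardial library 1 by the least. The gene was 1.97-fold higher in endocardial than in coronary cells (log2 fold change 0.98 ± 0.20, edgeR adjusted p 0.00272), and its share of Mmp CPM was 23.8% ± 1.64 in endocardial, 18.9% ± 4.04 in arterial and 18.4% ± 1.62 in venous libraries. Mmp28, or epilysin, a secreted enzyme, had 3.06, 20.8 and 15.2 CPM in endocardial, 3.61, 1.44 and 2.21 in arterial and 2.78, 4.63 and 4.40 in venous libraries. Endocardial library 1 was within the coronary range and the others were above it. Its log2 fold change was 2.07 ± 0.52 (edgeR adjusted p 0.011), with -0.05, 2.75 and 2.11 within batches; the call was lost without endocardial library 2 (adjusted p 0.154) or library 3 (0.0516). Mmp28 shares 466 exonic bases with 1700020L24Rik on the opposite strand (5.84 CPM in endocardial, 0.982 in arterial and 2.2 in venous libraries), and since the strand setting of the counting is not given, reads of such a pair cannot be told apart.

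**Figure D3:**
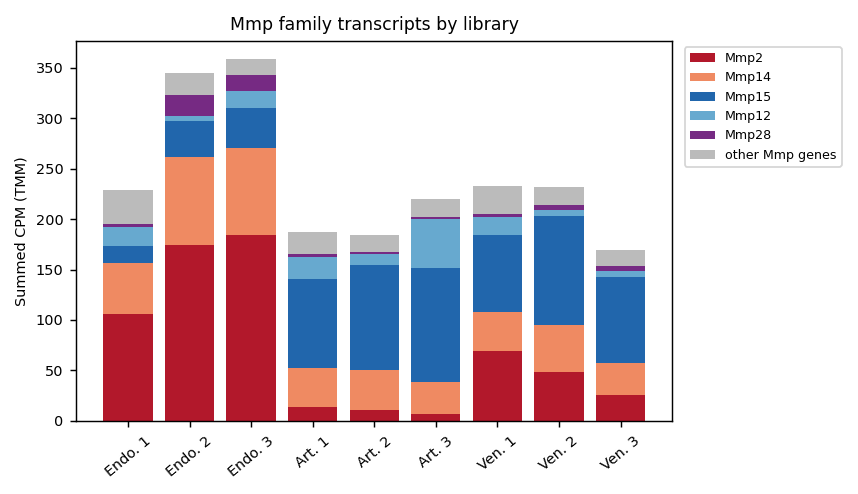
Summed CPM of all 23 Mmp genes in each library, stacked by gene, endocardial libraries at left, then arterial and venous. Mmp2 is the largest block in the 3 endocardial libraries and Mmp15 in the 3 arterial and 3 venous libraries.

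The other 8 tested Mmp genes were called in no comparison of the main fit. The most abundant of them was Mmp12, the macrophage elastase, at 18.5, 5.62 and 16.7 CPM in endocardial, 21.5, 10.9 and 48.9 in arterial and 18, 6.61 and 6.55 in venous libraries, so that its replicates spread over as wide a range as its populations. Leukocyte markers, which include the macrophage genes Adgre1, Csf1r and Cd68, summed to at most 13.8 CPM in the same libraries. With no filter on low counts, Mmp12 was called higher in arterial than in venous cells (log2 fold change 1.38, edgeR adjusted p 0.0161). Mmp16, a membrane-type enzyme, averaged 8.5 ± 3.21 CPM in endocardial, 3.92 ± 1.3 in arterial and 4.77 ± 0.889 in venous libraries. Mmp11, Mmp17, Mmp19, Mmp23, Mmp24 and Mmp25 had means of at most 5.87 CPM in any population, the highest being Mmp19 in endocardial libraries, where it ran between 1.15 and 10.5.

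The versican-cleaving Adamts genes did not move together. Adamts9 (ENSMUSG00000030022, chr6:92772699-92943492, minus strand), Adamts4 (ENSMUSG00000006403, chr1:171250421-171260637, plus strand) and Adamts1 (ENSMUSG00000022893, chr16:85793827-85803113, minus strand) share the asparagine codon shown above. The first pair were lower in endocardial than in coronary cells, and Adamts1 was not called in that contrast in the main fit. Adamts9 had 175, 224 and 159 CPM in endocardial libraries, 430, 649 and 598 in arterial and 372, 447 and 427 in venous libraries. No endocardial library reached the lowest coronary library, and the gene was 2.59-fold lower than in coronary cells (log2 fold change -1.37 ± 0.17, edgeR adjusted p 1.91e-05). Within batches the difference was -1.19, -1.26 and -1.67. Its partners on the opposite strand, A730049H05Rik (1381 shared exonic bases) and Gm15737 (424), were also low in endocardial cells, with mean CPM of 4.58 and 6.8 there, 19.4 and 24.5 in arterial and 8.77 and 11.3 in venous libraries. Adamts4, or aggrecanase-1, had 19.4, 10 and 13.2 CPM in endocardial libraries, 134, 89.9 and 59.9 in arterial and 61.5, 44.5 and 61.6 in venous libraries. Every endocardial value was under every coronary value, with a fold of 5.11 (log2 fold change -2.35 ± 0.29, edgeR adjusted p 3.42e-05) and differences of -2.20, -2.60 and -2.16 within batches.

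Adamts1, known for degrading the versican-rich matrix under the endocardium, was the most abundant protease of the set. It had 1200, 946 and 949 CPM in endocardial libraries, 1122, 918 and 775 in arterial and 659, 458 and 680 in venous libraries. Venous libraries were the lowest, and endocardial and arterial libraries overlapped. The gene was 1.72-fold higher in endocardial than in venous cells (log2 fold change 0.78 ± 0.18, edgeR adjusted p 0.00974), a call lost without venous library 2, and differed from arterial cells by 0.14 ± 0.18 (adjusted p 0.804) and between endocardial and coronary cells by 0.46 ± 0.16 (adjusted p 0.0614). The endocardial against coronary difference passed under 5 alternatives. In edgeR the adjusted p was 0.0178 with the replicate number as a block and 0.0424 with RLE scaling. It was 0.0286 with no filter on low counts and 0.0192 without arterial library 1, and DESeq2 gave 0.0336. Arterial cells were above venous cells by 0.65 ± 0.18 (adjusted p 0.159), which passed with the block (adjusted p 0.0397). Adamts1 made up 69.9% ± 3.65 of all Adamts CPM in endocardial, 53.2% ± 7.25 in arterial and 47.9% ± 6.25 in venous libraries, and Adamts9 12.7% ± 2.61, 32% ± 7.38 and 33.7% ± 5.36.

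Adamts5 lies 53.1 kb from Adamts1 on chromosome 16 and encodes aggrecanase-2, which also cuts versican. It had 98.2, 84.7 and 90.3 CPM in endocardial, 65.9, 74.4 and 63.1 in arterial and 64.2, 47.9 and 52.9 in venous libraries. Endocardial libraries were all highest, by a small step: the fold was 1.49 (log2 fold change 0.58 ± 0.16, edgeR adjusted p 0.0187), and the call was lost when any of endocardial libraries 1, 2 or 3 or venous libraries 2 or 3 was left out (adjusted p 0.0543 to 0.0719). Adamts8, a secreted protease of the same branch whose window has other letters, had 33.5, 39.6 and 33.7 CPM in endocardial, 7.22, 16.4 and 11.9 in arterial and 24.1, 24.9 and 32.2 in venous libraries. The 3 populations did not overlap, arterial being lowest. Against arterial cells it was 3-fold higher in endocardial cells (log2 fold change 1.59 ± 0.30, edgeR adjusted p 0.00167), and against venous cells the difference was 0.39 ± 0.30 (adjusted p 0.495). The endocardial against coronary difference of 0.99 ± 0.25 (adjusted p 0.0116) was lost without endocardial library 2 (adjusted p 0.0767). Arterial against venous, the value was -1.19 ± 0.30 (adjusted p 0.086), which passed with the replicate number as a block (adjusted p 0.0359).

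The procollagen proteases Adamts3 and Adamts14, which trim fibrillar collagen precursors, were scarce and higher in endocardial cells, and Adamts2, of the same group, was not called. Adamts3, which also takes part in activating the lymphatic growth factor Vegfc, had 14.7, 6.85 and 2.99 CPM in endocardial, 0.295, 0.518 and 3.68 in arterial and 0.769, 0.123 and 1.02 in venous libraries. Arterial library 3 lay above the lowest endocardial library. Its log2 fold change was 3.05 ± 0.82 (edgeR adjusted p 0.0181), and the call was lost without endocardial library 1 (adjusted p 0.165). Adamts14 had 5.35, 4.54 and 8.96 CPM in endocardial, 0.516, 0.230 and 1.40 in arterial and 1.36, 4.45 and 1.84 in venous libraries. Venous library 2 came close to the lowest endocardial library, and the log2 fold change of 2.22 ± 0.69 (edgeR adjusted p 0.041) was lost with no filter on low counts (adjusted p 0.0522) and without 7 of the 9 libraries in turn (0.0558 to 0.222). Adamts2 averaged 6.11 ± 2.77 CPM in endocardial, 8.92 ± 6.48 in arterial and 10 ± 3.17 in venous libraries.

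The other Adamts genes were called in no comparison of the main fit. The highest were Adamts12, a protease of cartilage oligomeric matrix protein, at 17.8, 40.7 and 38.3 CPM in endocardial, 18.4, 16.8 and 24.7 in arterial and 19.2, 18.4 and 23.0 in venous libraries, and Adamts10, which binds fibrillin, at 25.9 ± 9.2, 25.3 ± 7.79 and 29.2 ± 6.19 CPM in endocardial, arterial and venous libraries. For Adamts12, endocardial library 1 lay with the coronary libraries; the log2 fold change was 0.69 ± 0.27 (edgeR adjusted p 0.109), and without that library the gene was called (adjusted p 0.00858). In all, 23 of the 39 tested genes were called in no comparison of the main fit, and 16 of them averaged under 10 CPM in every population.

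Adamtsl genes, whose products bind matrix and have no protease window, split by member. Adamtsl4, which binds fibrillin-1 microfibrils, had 144, 243 and 354 raw counts in endocardial, 48, 111 and 86 in arterial and 33, 115 and 107 in venous libraries, with mean levels of 5.42 ± 1.63 CPM in arterial and 4.84 ± 2.63 in venous libraries. In CPM all endocardial libraries were above all coronary libraries, with a log2 fold change of 1.77 ± 0.41 (edgeR adjusted p 0.00659) that was lost without endocardial library 3 (adjusted p 0.0651). Adamtsl1 had 8.10, 6.70 and 6.24 CPM in endocardial libraries, against 0.369, 0 and 1.47 in arterial and 1.42, 0.556 and 0.154 in venous libraries. The gap left no overlap, and the log2 fold change was 3.40 ± 0.94 (edgeR adjusted p 0.021), lost without endocardial library 2 (adjusted p 0.0545). Adamtsl3 (ENSMUSG00000070469, chr7:82335694-82614450, plus strand) went the other way, with 12.4, 7.50 and 8.14 CPM in endocardial, 16.8, 19.8 and 22.7 in arterial and 28.7, 33.2 and 39.8 in venous libraries. The 3 populations did not overlap, and the gene was 2.77-fold lower in endocardial than in coronary cells (log2 fold change -1.47 ± 0.27, edgeR adjusted p 0.00101) and differed between arterial and venous cells by -0.78 ± 0.29 (adjusted p 0.407). Adamtsl3 made up 26.9% ± 8.78 of Adamtsl CPM in endocardial, 72.3% ± 3.15 in arterial and 84.2% ± 3.48 in venous libraries, and Adamtsl4 49.2% ± 14.6, 19.6% ± 4.66 and 11.6% ± 5.66.

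Of the inhibitors, Timp4 showed the largest size of change among the 39 genes in the endocardial against coronary contrast. Timp4 (ENSMUSG00000030317, chr6:115241892-115252205, minus strand), the member best known from the heart, had 1.60, 1.23 and 0.882 CPM in endocardial libraries, 17.8, 16.3 and 24.0 in arterial and 10.1, 20.4 and 28.3 in venous libraries. Endocardial libraries were all near 1 CPM and no coronary library was under 10 CPM. The gene was 15.7-fold lower in endocardial cells (log2 fold change -3.97 ± 0.44, edgeR adjusted p 5.96e-06), with -2.72, -3.44 and -4.27 within batches. Arterial and venous cells differed by -0.02 ± 0.39 (adjusted p 0.998). Mural and epicardial marker sums were also lower in endocardial libraries (epicardial: 26.2 to 33.5 CPM, against 183 to 211 in arterial and 157 to 185 in venous libraries). The lists as a whole were mixed: of 11 mural markers 3 were called lower (Rgs5, Abcc9 and Kcnj8) and 1 higher (Pdgfrb) in endocardial than in coronary cells, with a median log2 fold change of -0.55. Of 7 tested epicardial markers 1, Wt1, was called lower, and the median was -0.19. The epicardial median was 1.64 against arterial cells alone and -1.65 against venous cells alone. Their part in the Timp4 difference was not tested. Timp4 lies inside Syn2, which is on the opposite strand and shares 90 exonic bases with it, and Syn2 averaged 4.9 CPM in endocardial, 8.13 in arterial and 4.85 in venous libraries.

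Timp3 (ENSMUSG00000020044, chr10:86300372-86349506, plus strand), which binds to the matrix and inhibits both MMP and ADAMTS enzymes, carried most Timp transcripts and differed little. It had 651, 887 and 818 CPM in endocardial, 890, 941 and 845 in arterial and 757, 846 and 950 in venous libraries. The populations overlapped, the endocardial against coronary difference was -0.15 ± 0.13 on the log2 scale (edgeR adjusted p 0.569), and Timp3 made up 86% ± 1.18 of Timp CPM in endocardial, 87.5% ± 3.13 in arterial and 90.1% ± 0.936 in venous libraries. Its gene contains 1733 exonic bases shared with Syn3 on the opposite strand (17.3 CPM in endocardial, 51.7 in arterial and 19.8 in venous libraries). Timp2 (ENSMUSG00000017466, chr11:118301069-118355740, minus strand), which joins Mmp14 in activating the Mmp2 precursor as well as inhibiting it, had 100, 122 and 139 CPM in endocardial, 74.2, 110 and 128 in arterial and 78.0, 67.9 and 64.5 in venous libraries. Endocardial and venous libraries did not overlap, and the arterial libraries spanned both. The difference was 0.78 ± 0.21 against venous cells (edgeR adjusted p 0.0249), lost without venous library 2 or 3 or endocardial library 2 or 3, and 0.21 ± 0.21 against arterial cells (adjusted p 0.7). Against coronary cells it was 0.50 ± 0.18 (adjusted p 0.0824), and 0.0372 without endocardial library 1. Timp1, which inhibits most secreted MMPs, averaged 5.48 ± 0.731 CPM in endocardial, 3.76 ± 2.87 in arterial and 2.66 ± 1.45 in venous libraries and was not called.

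Endocardial cells were also set against each coronary population alone. Against arterial cells 11 genes were called, 6 higher and 5 lower (of all genes tested, 11.7% were called, 5.75% higher and 5.92% lower), and against venous cells 12 were called, 7 higher and 5 lower (10.2% of all genes tested, 4.44% higher and 5.81% lower). The 5 lower genes were Mmp15, Adamts4, Adamts9, Adamtsl3 and Timp4 in both. Mmp2, Mmp14 and Adamtsl4 were higher in both; Mmp28, Adamts8 and Adamts14 passed against arterial cells, and Adamts1, Adamts3, Adamts5 and Timp2 passed against venous cells. The contrasts share the endocardial libraries, and none of those 7 genes was called between arterial and venous cells in the main fit, so their difference between the contrasts is not shown there. Under some alternatives Adamts1 and Adamts8 were called between arterial and venous cells. The adjusted p was 0.0404 and 0.0221 with DESeq2. In edgeR it was 0.0144 and 0.00942 with no filter on low counts, and 0.0397 and 0.0359 with the replicate number as a block. Several of these calls were lost when 1 library was left out. Against arterial cells, Adamtsl3 was lost when only endocardial and arterial libraries entered the fit (edgeR adjusted p 0.0939) and without arterial library 2 or 3 or endocardial library 2 or 3 (0.0703 to 0.0956). Adamtsl4 was lost without arterial library 1, 2 or 3 or endocardial library 2 or 3 (0.0679 to 0.18), and Mmp14 without arterial library 3 or endocardial library 2 (0.0549 and 0.0573). Against venous cells, Adamtsl4 was lost without venous library 1 or 3 or endocardial library 2 or 3 (edgeR adjusted p 0.0686 to 0.124), and Mmp14 without the same libraries (0.0591 to 0.124). Adamts3 was lost without venous library 1, 2 or 3 or endocardial library 1 or 2 (0.0679 to 0.184), and Adamts5 without venous library 2 or 3 or endocardial library 3 (0.0531 to 0.133). Adamts14 against arterial cells was lost when only those 2 populations entered the fit (edgeR adjusted p 0.0601) and without arterial library 1 or 2 or endocardial library 3 (0.104 to 0.136). Mmp28 against arterial cells (log2 fold change 2.43 ± 0.66, edgeR adjusted p 0.0213) was lost with the replicate number as a block (adjusted p 0.0534) and without arterial library 2 or 3 or endocardial library 2 or 3 (0.0631 to 0.155). Without endocardial library 1 the counts were 12 and 13.

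Arterial and venous cells differed in 1 of the 39 genes, Mmp2, which was lower in arterial cells; of all genes tested, 1.07% were called, 0.31% higher and 0.76% lower. Mmp2 was 4.52-fold lower in arterial cells (log2 fold change -2.18 ± 0.39, edgeR adjusted p 0.0247), with -2.24, -2.10 and -1.90 within batches and no overlap. The call was lost with the replicate number as a block (adjusted p 0.0611) and without arterial library 1, 2 or 3 or venous library 2 (0.06 to 0.148). Fibroblast markers differed in the same direction in this contrast, 6 of 12 being called lower in arterial cells and their median log2 fold change being -4.13; their part was not tested. At an unadjusted p under 0.05, 4 genes had a positive log2 fold change for arterial minus venous (Adamts1, Adamts4, Adamts9 and Timp2) and 3 a negative one (Mmp2, Adamts8 and Adamtsl3), and DESeq2 called 3 genes, 1 higher and 2 lower. The median log2 fold change of the 39 genes was 0.01, against 0.03 over all genes.

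**Figure D4:**
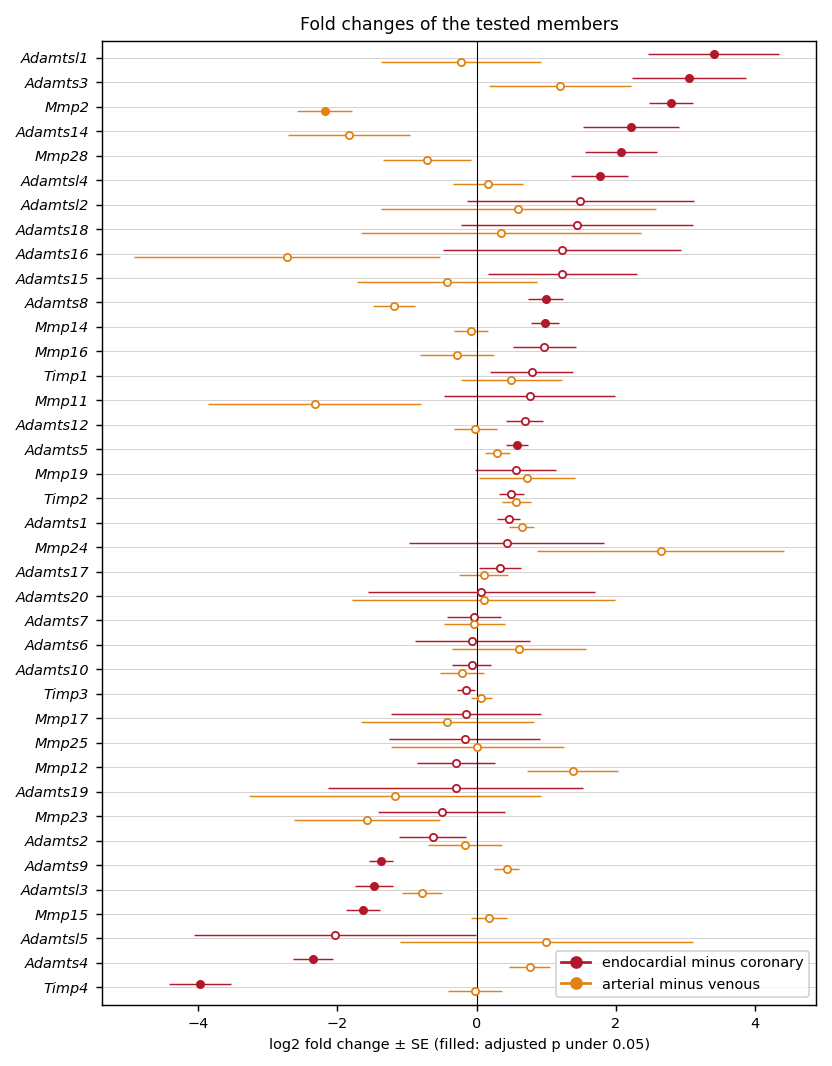
Log2 fold change ± SE of each of the 39 tested genes for endocardial minus coronary (red) and arterial minus venous (orange), filled where the adjusted p is under 0.05. The filled red points run from Timp4 at -3.97 to Adamtsl1 at 3.40, and Mmp2 at -2.18 is the filled orange point.

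**Figure D5:**
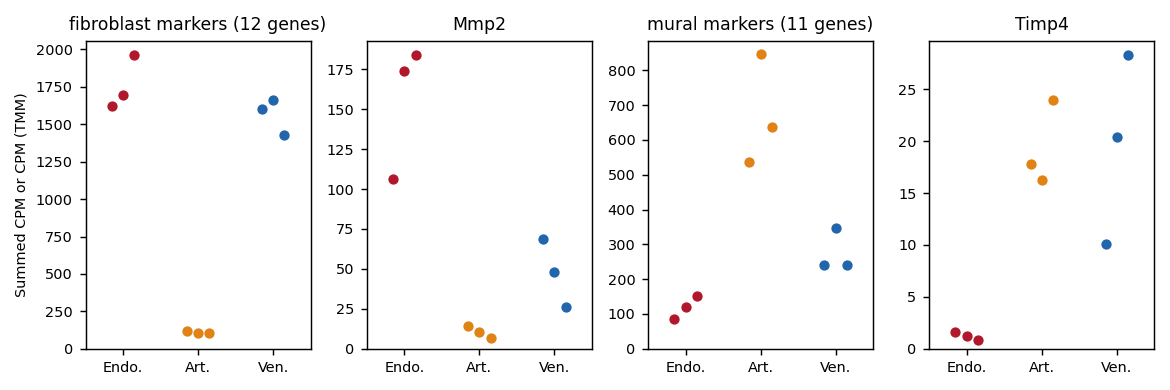
Summed CPM of fibroblast markers (12 genes) and of mural markers (11 genes) in each library beside the CPM of Mmp2 and Timp4, endocardial libraries at left, then arterial and venous. Arterial libraries are lowest in both the fibroblast sum (105 to 121) and Mmp2, and endocardial libraries are lowest in both the mural sum (85.1 to 151) and Timp4. The pairs part elsewhere. The mural sum is higher in arterial (537 to 847) than in venous libraries (241 to 348), where Timp4 overlaps. Endocardial and venous libraries overlap in the fibroblast sum (1622 to 1965 and 1425 to 1665) but not in Mmp2.

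Genes that act with these proteases were read from lists. Of all genes tested, 13.9% were called between endocardial and coronary cells, 6.91% higher and 7% lower, and 1.07% between arterial and venous cells. In the plasminogen system, whose product plasmin can activate several MMP precursors, 4 of 10 tested genes were called between endocardial and coronary cells, all lower: Plau and Plat, the plasminogen activators, Serpini1, an inhibitor of Plat, and S100a10, a plasminogen receptor. Plat averaged 60.3 ± 5.82 CPM in endocardial, 173 ± 30.9 in arterial and 112 ± 15.4 in venous libraries (log2 fold change -1.21 ± 0.17, edgeR adjusted p 8.47e-05), and Plau 3.53 ± 1.08, 25 ± 5.7 and 18.6 ± 6.35 (-2.61 ± 0.36, adjusted p 5.93e-05). Serpini1 averaged 0.379 ± 0.131 CPM in endocardial, 6.94 ± 2.01 in arterial and 1.61 ± 0.793 in venous libraries (-3.11 ± 0.81, edgeR adjusted p 0.0141), and S100a10 144 ± 21.4, 196 ± 3.29 and 219 ± 28.4 (-0.52 ± 0.15, adjusted p 0.024). The list's median log2 fold change was -0.48, against 0.08 over all genes.

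Among 13 tested further inhibitors and activators, 4 were higher and 0 lower in endocardial cells by edgeR, with 1 gene lower at an unadjusted p under 0.05 and 5 genes called in all by DESeq2. Reck, a membrane-anchored inhibitor of MMPs, averaged 70.6 ± 10.3 CPM in endocardial, 7.11 ± 0.134 in arterial and 12.7 ± 1.86 in venous libraries (log2 fold change 2.89 ± 0.20, edgeR adjusted p 2.43e-08). A2m, a broad protease inhibitor, averaged 87 ± 40.8 CPM in endocardial, 3.49 ± 2.7 in arterial and 11.3 ± 3.2 in venous libraries (log2 fold change 3.78 ± 0.54, adjusted p 0.00205), and Spock2, a matrix proteoglycan, 8.87 ± 0.692, 1.71 ± 1.11 and 2.92 ± 1.55 (1.99 ± 0.54, adjusted p 0.0195). Pcsk5, a proprotein convertase, averaged 59.7 ± 8.05 CPM in endocardial, 60.3 ± 16.8 in arterial and 15.9 ± 5.55 in venous libraries. It passed between endocardial and coronary cells (0.95 ± 0.22, edgeR adjusted p 0.00722) with overlapping libraries, and it was the gene of this list called between arterial and venous cells (log2 fold change 1.93, edgeR adjusted p 0.00108).

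Of 10 tested genes on a list of other metalloproteases outside the 4 families, Ece1, which makes active endothelin, and Tll1, a tolloid protease of procollagen and chordin, were higher in endocardial cells. Tll1 averaged 54.7 ± 18.6 CPM in endocardial, 3.58 ± 1.67 in arterial and 3.03 ± 0.7 in venous libraries (log2 fold change 4.05 ± 0.31, edgeR adjusted p 9.79e-08), and Ece1 1166 ± 406, 181 ± 2.75 and 213 ± 20.5 (2.57 ± 0.18, adjusted p 5.47e-08). Of 10 tested genes of the ADAM family, Adam22 was higher (1.65 ± 0.39, edgeR adjusted p 0.0078) and Adam23 lower (-1.48 ± 0.29, adjusted p 0.00153). The other 8 tested genes of this family were not called. Of 10 crosslinking genes, Lox and Loxl2, the lysyl oxidases of collagen and elastin, were higher (2.20 ± 0.24 and 1.44 ± 0.20, edgeR adjusted p 6.09e-06 and 7.19e-05) and Plod1 and Plod2, the lysyl hydroxylases, lower (-1.19 ± 0.18 and -1.05 ± 0.18, adjusted p 0.000198 and 0.00052). Between arterial and venous cells edgeR called 0 of the plasminogen, ADAM, other metalloprotease and crosslinking genes, with 4, 3, 1 and 3 genes at an unadjusted p under 0.05 and 1, 0, 0 and 0 called by DESeq2.

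Of 31 tested matrix substrates, 17 were higher and 3 lower in endocardial than in coronary cells, with a median log2 fold change of 1.70, against 0.08 over all genes. Of all genes tested, 6.91% were called higher and 7% lower in that contrast. Against venous cells alone 11 were higher and 4 lower (Col1a1, Nid2, Cd44 and Col3a1) in endocardial cells, with a median of 0.63. The shares of all genes tested were 4.44% and 5.81%. Between arterial and venous cells 1 was higher and 11 lower, against 0.31% and 0.76% of all genes tested. Vcan, or versican, the substrate of Adamts1, Adamts4, Adamts5 and Adamts9, averaged 1000 ± 185 CPM in endocardial, 32.3 ± 12.2 in arterial and 329 ± 100 in venous libraries (log2 fold change 3.28 ± 0.24, edgeR adjusted p 2.81e-06). Bgn, a small proteoglycan, averaged 609 ± 180 CPM in endocardial, 24.6 ± 5.56 in arterial and 122 ± 16.4 in venous libraries (log2 fold change 3.47 ± 0.18, adjusted p 1.7e-09), and Fn1, or fibronectin, 4937 ± 1263, 813 ± 175 and 949 ± 98.7 (2.49 ± 0.16, adjusted p 4.68e-08). Col5a2, a fibrillar collagen chain, averaged 720 ± 111 CPM in endocardial, 120 ± 22.4 in arterial and 189 ± 7.31 in venous libraries (2.25 ± 0.14, edgeR adjusted p 1.06e-08), and Fbn2, a microfibril protein, 144 ± 32.5, 8.99 ± 2.69 and 52.7 ± 5.29 (2.72 ± 0.19, adjusted p 4.19e-08). Between arterial and venous cells the smallest p-values among substrates belonged to Col3a1, Col1a2, Col1a1 and Fbn2, with log2 fold changes of -4.49, -4.05, -4.63 and -2.55 (edgeR adjusted p 1.42e-07, 6.4e-07, 1.67e-06 and 2.53e-05). The lower substrates in endocardial cells were Nid2, a basement membrane linker (-2.91 ± 0.28, edgeR adjusted p 1.3e-05), Cd44, the hyaluronan receptor (-1.46 ± 0.16, adjusted p 5.72e-06), and Lama4, a laminin chain (-0.46 ± 0.14, adjusted p 0.0364). The list shares 5 genes with the fibroblast markers (Col1a1, Col1a2, Col3a1, Dcn and Lum), and that marker sum was 1622 to 1965 CPM in endocardial, 105 to 121 in arterial and 1425 to 1665 in venous libraries; the part of fibroblast RNA in these counts was not tested.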

How the data were processed

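Gene counts were analysed for 9 RNA-seq libraries, 3 each of endocardial, arterial and venous cells. Per the labels, RNA was isolated with PicoPure, 1 ng was amplified with the Ovation Single Cell RNA-Seq kit, and single reads were sequenced. The deposited values are expected counts per Ensembl gene; the submitters' processing notes name RSEM 1.2.3, cutadapt 1.3, CASAVA 1.8.2 and the build GRCm38, and the aligner and the strand setting were not given in the sources used here. Of nonzero values, 45.5% were not whole numbers (tolerance 1e-06), so they were rounded. Symbols, exon lengths and coordinates came from GENCODE M21 (97.67% of features had a symbol), promoters from RefSeq on GRCm38.p6. The members and lists were chosen with earlier results of these data known.

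All 9 libraries entered a single edgeR 4.0.16 quasi-likelihood fit (robust, TMM scaling, R 4.3.3) after filterByExpr with a minimum count of 10, which kept 17103 genes; p-values were adjusted by Benjamini-Hochberg over these genes and called at 0.05. Standard errors are the log2 fold change over the square root of the test's F. Levels are TMM-scaled CPM, or CPM per kb of exon where genes are compared. Intervals are SDs over libraries, and depth was 12750553 to 19474419 counts. The script was tested on simulated data. Alternatives were RLE scaling, DESeq2 1.42.0, no filter, a filter of 1 CPM in 3 libraries, unrounded values, the replicate number as a block, fits with only the populations compared, and leaving out each library.

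Replicate numbers pair the libraries because the labels give the same number as a batch. The main fit had no term for the batch, so its p-values do not use this pairing. The replicate number entered as a block in an alternative fit only. Deviations from population means correlated by 0.083 to 0.165 among the libraries of batch 1, by 0.036 to 0.146 in batch 2 and by -0.09 to 0.092 in batch 3.

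Genes were named by rule: every member called in any comparison and the 8 tested members with the highest mean level per kb in full, the rest by ranges and counts; of other lists, up to 4 called genes with the smallest p. Members named beside these (Adamts12, Mmp12, Timp1 and others not called) and, among the substrates, Vcan, Cd44, Nid2 and Lama4, were named after their values were seen. Some items are not reported here.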

Additional observations from a re-analysis of the deposited data

How the results depend on the processing

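No member named as called changed direction under any alternative. Endocardial against coronary, 7 genes (Timp4, Adamts9, Adamts4, Mmp15, Adamtsl3, Mmp2 and Mmp14) were called under every setting run. The number of members called between endocardial and coronary cells was 14, and 9 to 14 when a library was left out, the lowest without endocardial library 2. Endocardial against arterial the number was 11, and 7 to 12 with a library left out (7 without arterial library 2, endocardial library 2 or endocardial library 3). Endocardial against venous it was 12, and 7 to 13 with a library left out (7 without venous library 2 or 3 or endocardial library 2 or 3). Arterial against venous it was 1, and 3 with DESeq2, 4 with no filter on low counts, 2 with the replicate block and 0 to 1 with a library left out. The cause of these shifts was not tested, except that leaving out a library leaves fewer libraries to test. Of all genes, 183 were called between arterial and venous cells, and 405 with DESeq2, 439 with no filter and 120 without venous library 1; endocardial against venous, 1753 were called, and 1130 without venous library 3. Beside the changes given with Mmp2, Adamts1, Adamts8 and Mmp28, the replicate block changed no other call of a member. Detection depends on its threshold: 49 members had a count, and 32 had at least 1 CPM in all 3 libraries of a population. Other scalings shifted the median of all genes by at most 0.032 on the log2 scale. Of members never called in a comparison, 12 of 22 changed sign under some setting endocardial against coronary and 18 of 35 arterial against venous. With 3 libraries per population and amplified RNA from 1 ng, members under about 10 CPM carry wide errors.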
